A study of Acipenser schrenckii with 6 samples.

Results

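The ileal bile acid binding and uptake genes measured here are 4 loci out of the 82023 features of a gut expression table of Amur sturgeon (Acipenser schrenckii): the gastrotropin-like loci LOC117431101 and LOC117964583, and the ileal sodium/bile acid cotransporter loci LOC117405829 and slc10a2. They were chosen by their FPKM difference between the diets in these same 6 libraries, so that difference is given as a description with no test. The table holds 2 loci with a gastrotropin product name and 2 with an ileal cotransporter product name, and both pairs are described in full. All 4 passed the minimum mean of 1 FPKM (fragments per kilobase of feature length, scaled to the library total) that 23644 features passed.

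The fish were bred artificially and kept in net cages before release into a river. For 30 days 1 group was fed fresh Limnodrilus, a tubificid worm raised in the water source of the fish so that it would carry environmental microbes, and the other was fed commercial feed. Each diet had 3 gut libraries, with totals recovered from the FPKM steps of 13.9 to 19.7 M reads with Limnodrilus and 9.95 to 10.5 M reads with commercial feed, so depth and diet differ together. The labels give no age and no gut segment, and leave unsaid how many fish went into a library, so the spread between libraries may in part be technical.

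Bile acids are made from cholesterol in the liver, secreted into the intestine to emulsify fat, and taken back up at its distal end. In mammals the apical sodium-dependent bile acid transporter (SLC10A2) carries them into the ileal enterocyte, gastrotropin (FABP6, the ileal lipid-binding protein) binds them in the cytosol, and the heteromeric organic solute transporter passes them to portal blood. Both SLC10A2 and FABP6 are classic markers of the ileum, and in zebrafish their counterparts mark enterocytes of the posterior intestine. The nuclear receptor FXR senses the returning bile acids and, through the hormone FGF19 and the repressor SHP, feeds back on their synthesis.

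The first gastrotropin-like locus is LOC117431101 (sequence NC_081211.1, 23494583 to 23496318, coordinates as deposited on an assembly the sources do not name). It was at 6192, 1599 and 2754 FPKM in Limnodrilus libraries 1, 2 and 3, against 97.7, 98.5 and 60.8 FPKM in commercial feed libraries 1, 2 and 3. The groups did not overlap, and the lowest Limnodrilus library was 16.2-fold above the highest commercial feed library. Every Limnodrilus library lay above every commercial feed library for 28.4% of the tested features, and nothing is read here from the fact that the chosen loci share this. The means were 3515 ± 2389 and 85.7 ± 21.6 FPKM (SD, n = 3 each), a ratio of 41.0. As a difference of mean log2(FPKM + 1), a scale that shrinks the changes of features with low values, the log2 fold change was 5.15 ± 0.54 (SE), the 6th largest of the tested features. In bulk gut RNA, fewer cells of a type and less RNA per cell cannot be told apart.

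This locus was the 4th, 28th and 7th most abundant feature of Limnodrilus libraries 1, 2 and 3, and ranked 426, 554 and 1036 in commercial feed libraries 1 to 3. About 45965, 16828 and 25106 reads lay behind the Limnodrilus values and 540, 524 and 341 behind those of commercial feed. In the most extreme library, Limnodrilus 1, it took 0.331% of the reads.

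The second gastrotropin-like locus, LOC117964583 (NC_081210.1, 24704173 to 24712868), was at 673, 183 and 269 FPKM in Limnodrilus libraries 1 to 3, against 13.6, 27.9 and 15.2 FPKM in commercial feed libraries 1 to 3. Again the groups did not overlap, with means of 375.1 ± 261 and 18.9 ± 7.83 FPKM (SD, n = 3 each), a ratio of 19.9 and a log2 fold change of 4.09 ± 0.55 (SE). The locus is annotated over 2548 bases, 4.76 times the 535 bases of LOC117431101.

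The first locus led the second in each library, but by more where worms were fed. The FPKM ratio of LOC117431101 to LOC117964583 was 9.20, 8.72 and 10.2 in Limnodrilus libraries 1 to 3 and 7.20, 3.54 and 4.01 in commercial feed libraries 1 to 3. As a share of gastrotropin FPKM, LOC117431101 held 89.7% to 91.1% with Limnodrilus and 78.0% to 87.8% with commercial feed. In reads, which are not corrected for length, the ratio was 1.93, 1.83 and 2.15 with Limnodrilus and 1.51, 0.742 and 0.842 with commercial feed, so in commercial feed libraries 2 and 3 the longer locus had more reads. Whether the full annotated length of LOC117964583 is transcribed in this tissue, and how reads matching both copies were assigned, was not tested, and both bear on this ratio.

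The cotransporter-like locus LOC117405829 (NC_081197.1, 37254819 to 37258708), annotated as a sodium-driven bile acid importer of the ileal type, was at 62.1, 21.3 and 41.9 FPKM in Limnodrilus libraries 1 to 3, against 0.0914, 1.42 and 1.98 FPKM in commercial feed libraries 1 to 3. The commercial feed values rest on 1, 15 and 22 reads, and the first lies under the 3-read floor of 0.274 FPKM, where counting error (the only error such floors cover) is large. The groups did not overlap, and the lowest Limnodrilus library was 10.7-fold above the highest commercial feed library. The means were 41.7 ± 20.4 and 1.17 ± 0.971 FPKM (SD, n = 3 each), with a log2 fold change of 4.30 ± 0.53 (SE); without commercial feed library 3 the commercial feed mean was 0.758 FPKM.

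The locus named slc10a2 (NC_081196.1, 49179076 to 49186238) was at 33.7, 5.10 and 7.69 FPKM in Limnodrilus libraries 1 to 3, against 0.217, 1.58 and 0.235 FPKM in commercial feed libraries 1 to 3, from 2090, 448 and 585 reads and from 10, 70 and 11 reads. It was the least abundant of the 4 and the most uneven, with Limnodrilus library 1 standing 6.61-fold above library 2. The Limnodrilus mean of 15.5 ± 15.8 FPKM (SD, n = 3) was 6.39 FPKM without library 1, and the commercial feed mean of 0.676 ± 0.779 FPKM (SD, n = 3) was 0.226 FPKM without commercial feed library 2. The log2 fold change was 2.96 ± 0.67 (SE). The groups did not overlap, but the gap was the narrowest of the 4 loci, at 3.24-fold between the lowest Limnodrilus and the highest commercial feed library.

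**Figure D1:**
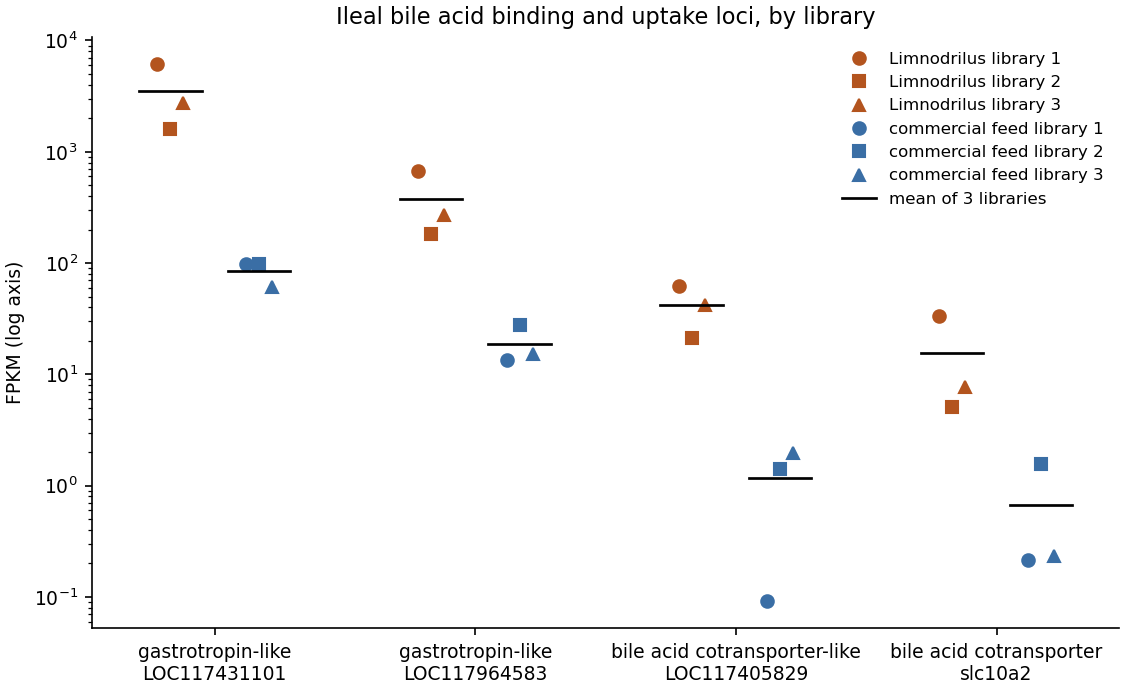
FPKM of the 4 loci in each library on a log axis, Limnodrilus left and commercial feed right within each locus, with marker shapes for library numbers and bars for the mean of 3 libraries. Every Limnodrilus library lies above every commercial feed library, and Limnodrilus library 1 is the highest and library 2 the lowest at each locus.

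The share of the cotransporter pair held by LOC117405829 was 64.8%, 80.7% and 84.5% in Limnodrilus libraries 1 to 3. It spread from 29.7% to 89.4% in the commercial feed libraries, where the pair had only 11, 85 and 33 reads together. Transcripts of the cytosolic binding protein were far more abundant than those of the importer: gastrotropin FPKM exceeded cotransporter FPKM 71.7-, 67.6- and 61.0-fold in Limnodrilus libraries 1 to 3, a narrow range, and 361-, 42.1- and 34.3-fold in commercial feed libraries 1 to 3, where the first value rests on the 11 cotransporter reads of that library.

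The 4 loci shared an order among the Limnodrilus libraries: library 1 was highest, library 3 next and library 2 lowest for each of them. That order was found for 18.4% of the tested features. It was examined after the values had been seen, and the same values entered the diet difference used to pick the loci. The loci also form pairs of counterparts, described below, so nothing is read from the shared order. Library 1 exceeded library 2 by 3.87-fold for LOC117431101, 3.67-fold for LOC117964583, 2.92-fold for LOC117405829 and 6.61-fold for slc10a2. Without library 1 the mean ratio of Limnodrilus to commercial feed was 25.4 for LOC117431101, 11.997 for LOC117964583, 27.1 for LOC117405829 and 9.46 for slc10a2, and the Limnodrilus means of LOC117431101 and LOC117964583 were 2176 and 226 FPKM. Among the commercial feed libraries the 4 loci had no common order: library 2 was the highest for LOC117431101, LOC117964583 and slc10a2, but for LOC117431101 it was level with library 1, and library 3 was the highest for LOC117405829.

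Likeness of pattern was measured as the root mean square difference over the 6 libraries between log2(FPKM + 1) profiles, each centred on its own mean, among the tested features with a named protein or RNA product. The closest of 20849 features to LOC117405829 was the gastrotropin-like LOC117964583, and the closest to LOC117964583 was LOC117405829, at a difference of 0.48. This measure contains the diet difference that the loci were picked for, and is a description. To LOC117431101 the closest were a serum amyloid P-component-like locus, LOC117973264 (a pentraxin, difference 0.54), the gastrotropin-like LOC117964583 (0.61) and the inositol-3-phosphate synthase locus LOC131721867 (0.62), an enzyme of inositol synthesis. Without Limnodrilus library 1, LOC117964583 was 18th in that order instead of 2nd.

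Next to LOC117964583 after the cotransporter came a ferritin middle subunit-like locus, LOC117967267, an iron storage protein (0.48), and dpep1, a membrane dipeptidase (0.50). LOC117405829 was followed by sqlea, squalene monooxygenase of sterol synthesis (0.55), and the CIDEC-like LOC131697676, a lipid droplet protein (0.60). The closest to slc10a2 were a proepiregulin-like locus, LOC117421107, an epidermal growth factor receptor ligand (0.42), and the small nucleolar RNAs SNORD83 (LOC131701807, 0.47) and SNORA31 (LOC117406400, 0.53). SNORD83 was at 13.5, 3.18 and 6.60 FPKM in Limnodrilus libraries 1 to 3 and SNORA31 at 12.2, 1.96 and 1.81 FPKM. Both were at 0 FPKM in every commercial feed library, and the reads behind these values are not given here. LOC117421107 was at 14.2, 2.01 and 4.64 FPKM in Limnodrilus libraries 1 to 3 and at 0.0736, 0.344 and 0.181 FPKM in commercial feed libraries 1 to 3, and so had the same order of Limnodrilus libraries as slc10a2. SNORD83 had that order too. The rest of the closest features outside the 4 loci did not: LOC117973264, LOC131721867, LOC117967267, dpep1, sqlea, LOC131697676 and SNORA31 were each lowest in Limnodrilus library 3. The cotransporter loci were far from being each other's closest: slc10a2 was 82nd in the order of LOC117405829, and LOC117405829 was 217th in that of slc10a2. Those places moved to 547 and 7465 without Limnodrilus library 1, and to 165 and 871 without commercial feed library 3.

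The other genes of bile acid handling had log2 fold changes of -1.56 to 3.25, an upper end above slc10a2 and below the other 3 loci. Loci for carriers, receptors and feedback signals, and synthesis enzymes numbered 104 besides the 4, and 65 of them had a mean of at least 1 FPKM. By limma-trend with Benjamini-Hochberg adjustment over all tested features, 6 rose with Limnodrilus, 0 fell and 59 did not pass. The 6 calls by limma-trend are 9.23% of the 65, against 17.7% of all tested features called, 14.0% higher and 3.64% lower. Limma-voom on recovered reads called 6 higher and 0 lower, beside 14.5% of all tested features called. At an unadjusted p under 0.05 limma had 22 higher and 0 lower. The share of all tested features at that unadjusted threshold is not given, so nothing is read from such counts, here or below. The median log2 fold change of the 65 was 0.64, beside 0.24 over the whole tested table, and 8 of the 65 had the order 1 above 3 above 2 among the Limnodrilus libraries. Leaving out Limnodrilus library 1, 2 or 3 left 1 call each time, leaving out commercial feed library 2 left 2 and commercial feed library 3 gave 22, all higher, while the share of all tested features called came to 3.13%, 2.99%, 2.7%, 7.88% and 26.6%. The direction of the calls also turned with the library left out. Without commercial feed library 1 there were 4 higher and 2 lower. Without commercial feed libraries 1 and 2 together, where the lone library left is assumed to vary like the others, there were 1 higher, the P3 protein-like LOC117424425 described below, and 8 lower, with a median log2 fold change of -0.23, beside 1981 higher and 1920 lower over all tested features.

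**Figure D2:**
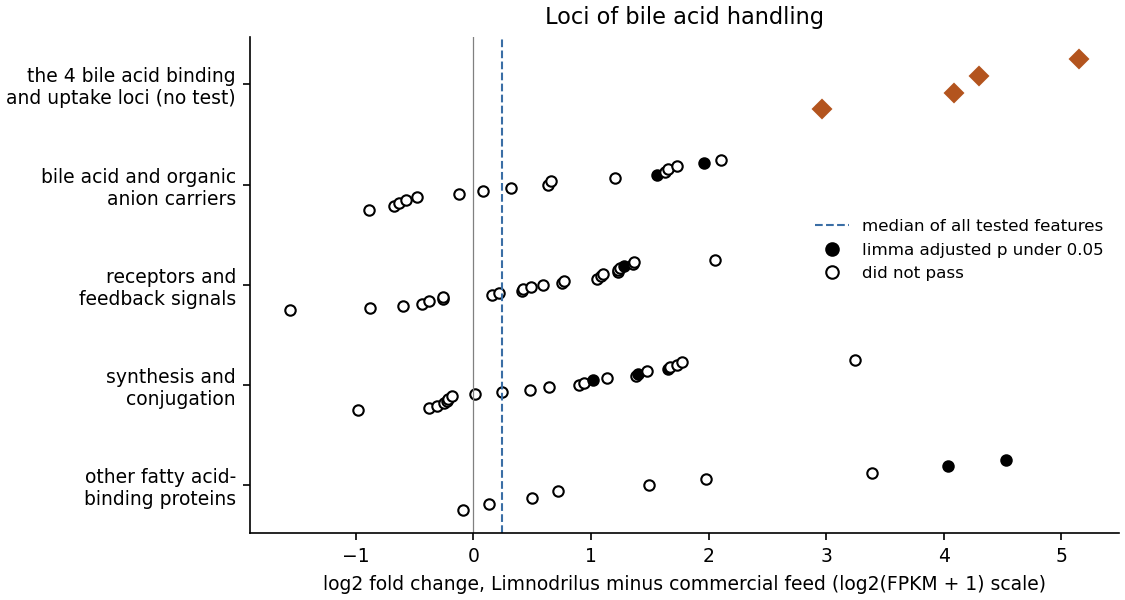
Log2 fold change (difference of mean log2(FPKM + 1), Limnodrilus minus commercial feed) of each tested locus by role; filled points passed limma at an adjusted p under 0.05, open points did not, diamonds are the 4 loci described without a test, and the dashed line is the median of all tested features (0.24). The 4 loci lie between 2.96 and 5.15, and the carriers between -0.89 and 2.11.

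Of the 39 other carrier loci, 17 were tested, of which 2 rose and 15 did not pass; the median of their log2 fold changes was 0.63. Both that rose are P3 protein-like loci (the SLC10A3 type, a member of the cotransporter's family whose substrate is not established). LOC117424425 was at 3.72, 5.47 and 4.09 FPKM in Limnodrilus libraries 1 to 3, against 0.532, 0.166 and 0.471 FPKM in commercial feed libraries 1 to 3 (log2 fold change 1.96 ± 0.30 SE, limma adjusted p = 0.0103, non-overlapping groups). Its commercial feed values rest on 10, 3 and 9 reads. LOC131698910 averaged 4.59 ± 1.16 and 0.896 ± 0.368 FPKM (SD, n = 3 each, limma adjusted p = 0.0202), a call that was lost without Limnodrilus library 1, 2 or 3 (adjusted p = 0.0892, 0.0764 and 0.0606). In those fits 3.13%, 2.99% and 2.7% of all tested features were called, beside 17.7% with all libraries. Calls were thus lost widely in them, which holds for the lost calls below too.

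The 3 tested loci of the rest of the SLC10 family gave 0 calls by limma, 0 at an unadjusted p under 0.05 and 0 by limma-voom. The locus slc10a1, named after the hepatic bile acid importer, was at 1.73, 11.3 and 0.147 FPKM in Limnodrilus libraries 1 to 3, against 2.47, 2.41 and 7.80 FPKM in commercial feed libraries 1 to 3 (adjusted p = 0.719). Its Limnodrilus mean of 4.39 FPKM rests on library 2 and was 0.937 FPKM without it, and its commercial feed mean of 4.23 FPKM was 2.44 FPKM without library 3. The SLC10A5-like locus LOC117435605 averaged 0.662 ± 0.188 and 1.496 ± 0.507 FPKM (SD, n = 3 each; adjusted p = 0.237), and the SLC10A7-type locus LOC117408415 2.86 ± 1.23 and 2.005 ± 0.563 FPKM (adjusted p = 0.567). A further SLC10A7-type locus, both SLC10A4-like loci and both SLC10A6-type loci had means under 1 FPKM and were not tested.

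Of the organic solute transporter alpha subunit, the basolateral exporter of the ileal route, 2 of the 5 annotated loci were tested and 0 passed, with 1 higher at an unadjusted p under 0.05 and 0 called by limma-voom. That one was LOC117406804, at 9.81, 1.95 and 3.38 FPKM in Limnodrilus libraries 1 to 3, against 0.229, 0.333 and 1.31 FPKM in commercial feed libraries 1 to 3 (log2 fold change 1.74 ± 0.52 SE, limma adjusted p = 0.0581). Its groups did not overlap, and its Limnodrilus libraries had the order of the 4 loci, 1 above 3 above 2. The other tested locus, si:dkey-16n15.6, was the more abundant and its groups overlapped. It was at 12.4, 5.69 and 13.3 FPKM with Limnodrilus, against 2.45, 5.14 and 15.3 FPKM with commercial feed (limma adjusted p = 0.494). The bile salt export pump-like locus LOC117426689, of the type that secretes bile salts from hepatocytes, had a different order, at 1.62, 7.37 and 0.566 FPKM with Limnodrilus, against 0.0434, 0 and 0.107 FPKM with commercial feed (adjusted p = 0.0944). The most abundant carrier locus was the organic anion transporter SLCO4A1-like LOC117423773, at 41.2 ± 11.5 and 22.8 ± 16.2 FPKM (SD, n = 3 each; adjusted p = 0.28). LOC117406804, si:dkey-16n15.6, LOC117426689 and, below, LOC117419660, LOC117414949, LOC117433418, LOC117966013, LOC131728558, LOC117434863, LOC117431959, LOC117399510, LOC117399933 and LOC131737664 were chosen after their values were seen.

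Among 36 loci of receptors and feedback signals, 25 were tested and 1 rose; the median of their log2 fold changes was 0.59. It was a retinoid X receptor alpha locus, LOC117396884, a dimer partner of FXR, at 10.78 ± 2.89 and 3.77 ± 0.581 FPKM (SD, n = 3 each; log2 fold change 1.28 ± 0.32 SE, limma adjusted p = 0.0326). This call was lost without Limnodrilus library 1, 2 or 3 (adjusted p = 0.12, 0.0697 and 0.137), and without commercial feed library 1 or 2 (0.0629 and 0.0643). The bile acid receptor-like locus LOC117419660 (FXR type) was at 18.1, 6.39 and 13.1 FPKM in Limnodrilus libraries 1 to 3, against 3.83, 4.88 and 6.26 FPKM in commercial feed libraries 1 to 3 (adjusted p = 0.11). A second, LOC117414949, was at 6.36, 2.01 and 6.39 FPKM with Limnodrilus, against 0.233, 1.55 and 2.07 FPKM with commercial feed (adjusted p = 0.0993), and its groups overlapped. Library 2 was the lowest Limnodrilus library at both receptor loci. Of the remaining bile acid receptor loci, under 1 FPKM and not tested, LOC117966013 was lowest in library 2 and LOC117433418 in library 1. The share of all tested features with library 2 lowest was not computed, so nothing is read from this.

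The most abundant locus of the receptor list, the SHP-type nuclear receptor LOC117414218 (NR0B2-like), a transcriptional repressor of bile acid synthesis, was at 161, 206 and 128 FPKM in Limnodrilus libraries 1 to 3. In commercial feed libraries 1, 2 and 3 it was at 2.34, 45.0 and 390 FPKM, a span that encloses the Limnodrilus values (adjusted p = 0.362). Commercial feed library 3 thus had the highest level of this locus and the lowest of LOC117431101. The rest of the 4 loci differed from LOC117431101 in this. LOC117964583, LOC117405829 and slc10a2 were lowest in commercial feed library 1, at 13.6, 0.0914 and 0.217 FPKM. LOC117405829 was highest in commercial feed library 3, at 1.98 FPKM. Without commercial feed library 3 the commercial feed mean of the SHP-type LOC117414218 was 23.7 FPKM in place of 145.7. Its difference then passed (limma adjusted p = 0.0346), in a setting where 26.6% of all tested features were called. Without commercial feed libraries 1 and 2 the log2 fold change of LOC117414218 was -1.26.

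An FGF19-like locus, LOC131728558, of the hormone by which the mammalian ileum signals to the liver, had a mean of 0.942 FPKM and so was not tested with the rest. It was at 0.947, 3.39 and 1.32 FPKM in Limnodrilus libraries 1 to 3, from 14, 71 and 24 reads, and had 0 reads in the 3 commercial feed libraries, where 3 reads per library would have given 0.274 FPKM on average. The Limnodrilus mean was thus at least 6.87-fold higher than that floor, or at least 4.13-fold higher without Limnodrilus library 2. With no minimum on the mean its adjusted p by limma-trend was 0.0438, in a setting where 8.55% of 41032 features passed. As the locus was chosen after its values were seen, nothing is read from that p-value. LOC131728558 was highest in Limnodrilus library 2, the lowest for the 4 loci. The remaining FGF19-type loci, also under 1 FPKM and not tested, were higher on average with commercial feed. LOC117434863 was at 0, 0 and 0.0601 FPKM with Limnodrilus, against 0.744, 0.258 and 0.0977 FPKM with commercial feed. LOC117431959 was at 0, 0 and 0 FPKM, against 0.0807, 0 and 0.0794 FPKM.

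Of 29 loci of bile acid synthesis and conjugation, 23 were tested, of which 3 rose and 20 did not pass; the median of their log2 fold changes was 0.90. The 3 were hsd3b7, which oxidises the sterol ring early in the pathway, and both loci of the peroxisomal multifunctional enzyme type 2 (HSD17B4), which shortens the side chain and also serves fatty acid oxidation. hsd3b7 was at 1.82, 4.75 and 2.73 FPKM in Limnodrilus libraries 1 to 3, against 0.071, 0.442 and 0.245 FPKM in commercial feed libraries 1 to 3 (limma adjusted p = 0.0227). Its commercial feed values rest on 2, 12 and 7 reads, the first under the 3-read floor. LOC117427495 averaged 10.4 ± 0.294 and 4.66 ± 0.552 FPKM (SD, n = 3 each; adjusted p = 0.0443) and LOC117973220 11.5 ± 2.44 and 3.80 ± 1.33 FPKM (adjusted p = 0.0336). Without Limnodrilus library 1, 2 or 3 the adjusted p was 0.056, 0.0676 and 0.077 for hsd3b7, 0.166, 0.121 and 0.15 for LOC117427495, and 0.128, 0.119 and 0.085 for LOC117973220. Without commercial feed library 2 it was 0.0504, 0.0775 and 0.0854 for the same loci, and without library 1 it was 0.0627 for LOC117427495.

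The HSD17B4 calls also depended on scaling: after median-of-ratios scaling, which brought the median over the tested features to 0.009 in place of 0.24, the adjusted p was 0.121 for LOC117427495 and 0.0857 for LOC117973220. Cholesterol 7-alpha-hydroxylase, the first enzyme of the classical pathway in liver, did not pass: its most abundant locus, LOC117399510, was at 3.04, 5.12 and 3.56 FPKM with Limnodrilus, against 3.43, 5.48 and 5.25 FPKM with commercial feed (adjusted p = 0.659). The 12-alpha-hydroxylase-like LOC117399933 was at 3.58, 62.5 and 12.2 FPKM with Limnodrilus, against 0, 0.0762 and 3.15 FPKM with commercial feed (adjusted p = 0.0556). The most abundant locus of the list was the AKR1D1-like LOC117415834, a steroid reductase, at 15.3, 72.0 and 33.4 FPKM with Limnodrilus, against 25.7, 56.2 and 205.0 FPKM with commercial feed (adjusted p = 0.437). Its means of 40.2 and 95.6 FPKM became 24.3 FPKM without Limnodrilus library 2 and 41.0 FPKM without commercial feed library 3.

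Gastrotropin belongs to the fatty acid-binding protein family, whose other members carry long-chain fatty acids. Of 10 other loci of the family, 9 were tested, 2 rose and 7 did not pass, or 22.2% called, beside 17.7% of all tested features. Limma-voom called 1 of them, beside 14.5% of all tested features. The intestinal type LOC117409347 (FABP2) was at 1295, 7431 and 2962 FPKM in Limnodrilus libraries 1 to 3, against 31.5, 93.5 and 749 FPKM in commercial feed libraries 1 to 3 (limma adjusted p = 0.034). That call was lost without Limnodrilus library 1, 2 or 3 (adjusted p = 0.0681, 0.127 and 0.102) and without commercial feed library 1 or 2 (0.0677 and 0.101), and its means of 3896 and 291.5 FPKM became 2128 FPKM without Limnodrilus library 2 and 62.5 FPKM without commercial feed library 3. The brain-type LOC117402474 (FABP7) was at 18.5, 75.1 and 13.4 FPKM with Limnodrilus, against 0.864, 0 and 1.58 FPKM with commercial feed (limma adjusted p = 0.0119, limma-voom adjusted p = 0.0569), and its Limnodrilus mean of 35.6 FPKM was 15.9 FPKM without library 2. The commercial feed values of this locus rest on 7, 0 and 13 reads.

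Among the Limnodrilus libraries FABP2 and FABP1 had the reverse of the gastrotropin order. FABP2 was highest in Limnodrilus library 2 and lowest in library 1, and liver-type LOC131737664 (FABP1) had the same order at 453.6, 2100 and 1097 FPKM in Limnodrilus libraries 1 to 3, against 13.1, 99.6 and 638 FPKM in commercial feed libraries 1 to 3 (adjusted p = 0.104). That order, 2 above 3 above 1, was found for 16.7% of the tested features. Gastrotropin FPKM over FABP2 FPKM was 5.30, 0.240 and 1.02 in Limnodrilus libraries 1 to 3. In commercial feed libraries 1 to 3 it was 3.53, 1.35 and 0.101, so this ratio overlapped between the diets. The levels of gastrotropin and of FABP2 each did not overlap, and the gastrotropin-like loci were picked for their diet difference.

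**Figure D3:**
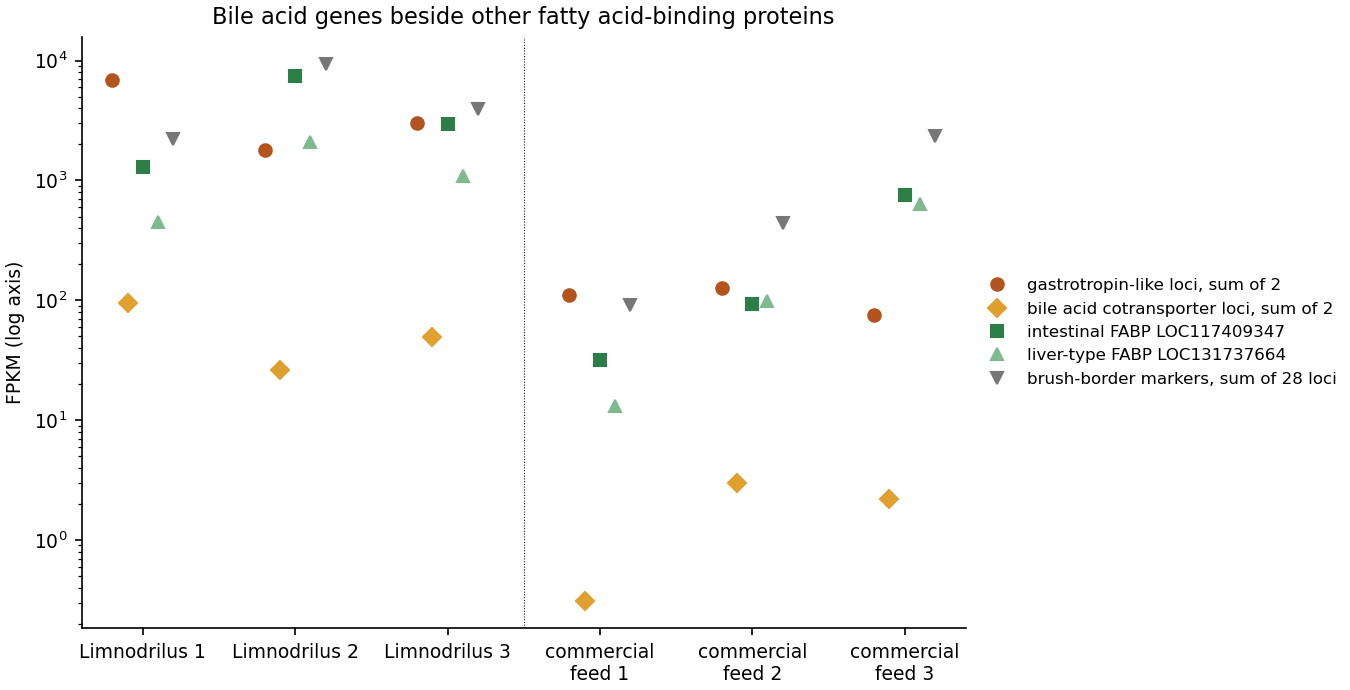
FPKM on a log axis in each library: the sum of both gastrotropin-like loci, the sum of both cotransporter loci, the intestinal and liver-type fatty acid-binding protein (FABP) loci and the sum of 28 brush-border marker loci, which include the intestinal FABP. Commercial feed library 3 has 2338 FPKM of brush-border markers, beside 2210 FPKM in Limnodrilus library 1, and 75.9 FPKM of gastrotropin, beside 6865 FPKM.

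The libraries differed in tissue make-up as read from markers, and these values stand beside the diet difference of the 4 loci. Brush-border markers (11 of 12 listed proteins matched, 28 loci, of which 23 were tested) summed to 2210, 9426 and 3939 FPKM in Limnodrilus libraries 1 to 3, against 91.8, 444 and 2338 FPKM in commercial feed libraries 1 to 3. Commercial feed libraries 1 and 2 lay below every Limnodrilus library. Library 3 lay within the Limnodrilus range by this sum, of which FABP2 at 749.5 FPKM and the peptide transporter SLC15A1 at 759.7 FPKM were the greater part; SLC15A1 was at 35.5, 583.1 and 104.4 FPKM in Limnodrilus libraries 1 to 3. By the mean of log2(FPKM + 1) over the same loci, library 3 at 3.94 lay below the Limnodrilus libraries at 4.10, 4.75 and 4.29, and of the 11 proteins 5 were lower in it than in every Limnodrilus library (CDH17, CDX2, EpCAM, FABP2 and villin) and 1 was higher (SLC15A1). For EpCAM the gap was slight and the level low, at 0.403 FPKM against 0.4125 FPKM in Limnodrilus library 2. Commercial feed libraries 1 and 2 were above that Limnodrilus library for EpCAM, at 0.591 and 1.01 FPKM. All 23 tested loci had a positive log2 fold change, from 0.43 to 4.53. By limma 4 rose, or 17.4% beside 17.7% of all tested features, 15 were higher and 0 lower at an unadjusted p under 0.05, and limma-voom called 3. The limma count was 0 without Limnodrilus library 1, 2 or 3, where 3.13%, 2.99% and 2.7% of all tested features were called. It was 0 without commercial feed library 2 (7.88% of all tested features) and 2 without commercial feed library 1 (8.7%, beside 14.5%). Without commercial feed library 3 it was 18 (78.3%, beside 26.6%). The part of epithelial content in the difference of the 4 loci was not tested.

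Without commercial feed libraries 1 and 2 the log2 fold changes of the 4 loci were 5.61 for LOC117431101, 4.32 for LOC117964583, 3.72 for LOC117405829 and 3.31 for slc10a2. Against library 3 alone, the lowest Limnodrilus library was higher 26.3-fold for LOC117431101, 12.1-fold for LOC117964583 and 21.7-fold for slc10a2, and 10.7-fold for LOC117405829, whose highest commercial feed library this is. Of the tested features, 40.9% had commercial feed library 3 below every Limnodrilus library.

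Smooth muscle markers (6 of 8 proteins, 18 loci, of 13 tested 0 called by limma, 1 at an unadjusted p under 0.05 and 0 by limma-voom) summed to 3276, 2299 and 2379 FPKM in Limnodrilus libraries 1 to 3, and to 8107, 4940 and 633 FPKM in commercial feed libraries 1 to 3. Commercial feed library 3 thus lay below every Limnodrilus library by this sum, and commercial feed libraries 1 and 2 above. The proteins listed for endocytic uptake in the distal gut are the receptors cubilin and megalin, their partner amnionless and the adaptor disabled-2. Together they mark protein-absorbing enterocytes of the posterior intestine in zebrafish. They summed to 284, 168 and 91.0 FPKM with Limnodrilus, against 64.1, 278 and 288 FPKM with commercial feed (13 loci, 9 tested, 2 rose by limma and 0 by limma-voom). Disabled-2 was the greater part of this sum in each library. The sum, and each of these proteins alone, overlapped between the diets. The limma calls were 22.2% of those tested, beside 17.7% of all tested features. Both were lost without Limnodrilus library 1, 2 or 3, where 3.13%, 2.99% and 2.7% of all tested features were called. Cubilin, which takes up intrinsic factor and other ligands, was at 27.0, 17.3 and 0.831 FPKM in Limnodrilus libraries 1 to 3, against 2.12, 53.6 and 1.04 FPKM in commercial feed libraries 1 to 3. The part of gut region in the difference of the 4 loci was not tested.

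Liver markers (9 of 9 proteins, 20 loci, 11 tested) summed to 277, 615 and 246 FPKM in Limnodrilus libraries 1 to 3, against 10.3, 47.3 and 208 FPKM in commercial feed libraries 1 to 3. Of those tested 1 rose, or 9.09%, beside 17.7% of all tested features. Apolipoprotein B, which enterocytes also make, was most of the Limnodrilus library 2 sum at 560 FPKM. Albumin was at 32.9, 1.03 and 1.75 FPKM with Limnodrilus, against 0, 0.234 and 0.277 FPKM with commercial feed. The fibrinogen chains, hemopexin and SERPINA1 were likewise highest in Limnodrilus library 1, which had the highest values of the 4 loci. Apolipoprotein B, transferrin and cholesterol 7-alpha-hydroxylase were not. Transferrin was at 12.74, 0.788 and 2.63 FPKM with Limnodrilus, against 3.01, 23.69 and 23.96 FPKM with commercial feed. Cholesterol 7-alpha-hydroxylase, summed over its loci, was lowest in Limnodrilus library 1, at 3.4 FPKM. Pancreas markers (33 loci, of 19 tested 0 called by limma, 3 at an unadjusted p under 0.05 and 0 by limma-voom) summed to 892, 595 and 1220 FPKM with Limnodrilus, against 62.8, 1614 and 3211 FPKM with commercial feed, and stomach markers (18 loci, 1 tested) to at most 8.30 FPKM in any library. Pancreatic lipase (PNLIP) was most of the pancreas sum, at 632, 562 and 766 FPKM, against 53.3, 1534 and 3014 FPKM. Among the Limnodrilus libraries each matched pancreas protein, PNLIP included, was highest in library 3, next in library 1 and lowest in library 2. Commercial feed library 1 was the lowest of its diet for each, or level with the lowest for elastase CELA1. The share of all tested features with that order was not computed, so nothing is read from it. Carboxypeptidase CPA1 was at 128, 19.3 and 149 FPKM, against 2.56, 24.7 and 45.0 FPKM. Amylase AMY2A was at 6.40, 0.937 and 14.2 FPKM, against 1.09, 4.55 and 36.2 FPKM. Blood markers (2 tested, 1 rose) summed to 102, 140 and 49.5 FPKM, against 5.31, 241 and 115 FPKM, and immune markers (of 8 tested 0 called by limma, 1 higher and 1 lower at an unadjusted p under 0.05 and 0 by limma-voom) to 56.7, 62.9 and 166 FPKM, against 79.8, 67.9 and 482 FPKM. The single blood call also stands beside 17.7% of all tested features called. Hemoglobin alpha was most of the blood sum, and its values overlapped between the diets. Hemoglobin beta was at 1.64, 9.13 and 2.40 FPKM with Limnodrilus, against 0, 0.254 and 0.249 FPKM with commercial feed. No listed protein that matched a locus was at 0 in all libraries of a diet, and the part of these tissues in the difference of the 4 loci was not tested.

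The surroundings of the 4 loci on their sequences were read from the deposited coordinates, a property that the choice of the loci did not use. The gastrotropin-like loci sit in matching gene orders on NC_081211.1 and NC_081210.1: of the 10 nearest loci with a named product on each side, 18 of 20 around LOC117431101 have a counterpart of the same product name around LOC117964583, and 16 of 20 the other way round. The 15 shared products lie on the same side of both loci. Directly next to each are a PWWP2A-like and a cyclin-J-like locus, followed by TTC1-like and C1QTNF2-like loci. Sturgeon genomes retain many gene pairs from an ancient doubling of the genome.

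The cotransporter loci are paired in the same way, in reverse orientation: 14 of the 20 neighbours of LOC117405829 on NC_081197.1 have a counterpart among the 20 neighbours of slc10a2 on NC_081196.1, and the 14 shared products lie on opposite sides. They include TEX30-like, POGLUT2-like and interleukin-18 receptor loci on 1 side and ephrin-B2 and ARGLU1-like loci on the other. The 4 loci therefore stand as 2 pairs of counterparts, and the members of a pair are not independent observations where reads could match both.

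Calls were few among the neighbours. Around the gastrotropin-like loci 18 neighbours were tested and 0 passed limma, with log2 fold changes of -2.19 to 0.91 and a median of -0.11. At an unadjusted p under 0.05 limma had 2 higher and 2 lower, and limma-voom called 0; limma gave 2 lower after median-of-ratios or quantile scaling, and 1 lower without commercial feed library 1 or without library 2. Of all tested features 17.7% were called. The nearest tested one, PWWP2A-like LOC117413305, whose annotated end lies just before the start of LOC117964583, averaged 2.44 ± 0.155 and 1.40 ± 0.488 FPKM (SD, n = 3 each; adjusted p = 0.244). Its counterpart beside LOC117431101, LOC117431619, averaged 3.03 ± 0.179 and 1.57 ± 0.124 FPKM (adjusted p = 0.136).

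Around the cotransporter loci 28 neighbours were tested, of which 1 rose, 2 fell and 25 did not pass, with log2 fold changes of -1.93 to 1.55. That is 10.7% called, beside 17.7% of all tested features. Both that fell are the counterpart loci of ARGLU1, a splicing cofactor: LOC117405938 averaged 87.4 ± 13.9 and 256 ± 83.0 FPKM (SD, n = 3 each; limma adjusted p = 0.0332) and LOC117407221 83.4 ± 5.62 and 338.5 ± 149 FPKM (adjusted p = 0.0198). The interleukin-18 receptor accessory protein-like LOC117407033, part of a cytokine receptor, averaged 3.02 ± 0.741 and 0.555 ± 0.185 FPKM (adjusted p = 0.0247). All 3 calls were lost without Limnodrilus library 1, 2 or 3, with an adjusted p of 0.115, 0.118 and 0.103 for LOC117405938, 0.077, 0.0767 and 0.0842 for LOC117407221, and 0.103, 0.0581 and 0.0921 for LOC117407033. Without commercial feed library 2 it was 0.0643 for LOC117405938 and 0.0552 for LOC117407033. Without Limnodrilus library 1, 2 or 3 only 3.13%, 2.99% and 2.7% of all tested features were called. With 1 library left out the log2 fold changes were -1.69 to -1.255 for LOC117405938, -2.14 to -1.59 for LOC117407221 and 1.24 to 1.51 for LOC117407033. The count of calls was 5 without commercial feed library 1, with 3 higher and 2 lower, and 5 without library 3, with 2 higher and 3 lower. Each of these is 17.9% of the neighbours tested, beside 14.5% and 26.6% of all tested features. With all libraries, limma had 6 higher and 2 lower at an unadjusted p under 0.05. By limma-voom 1 was called higher and 2 lower.

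**Figure D4:**
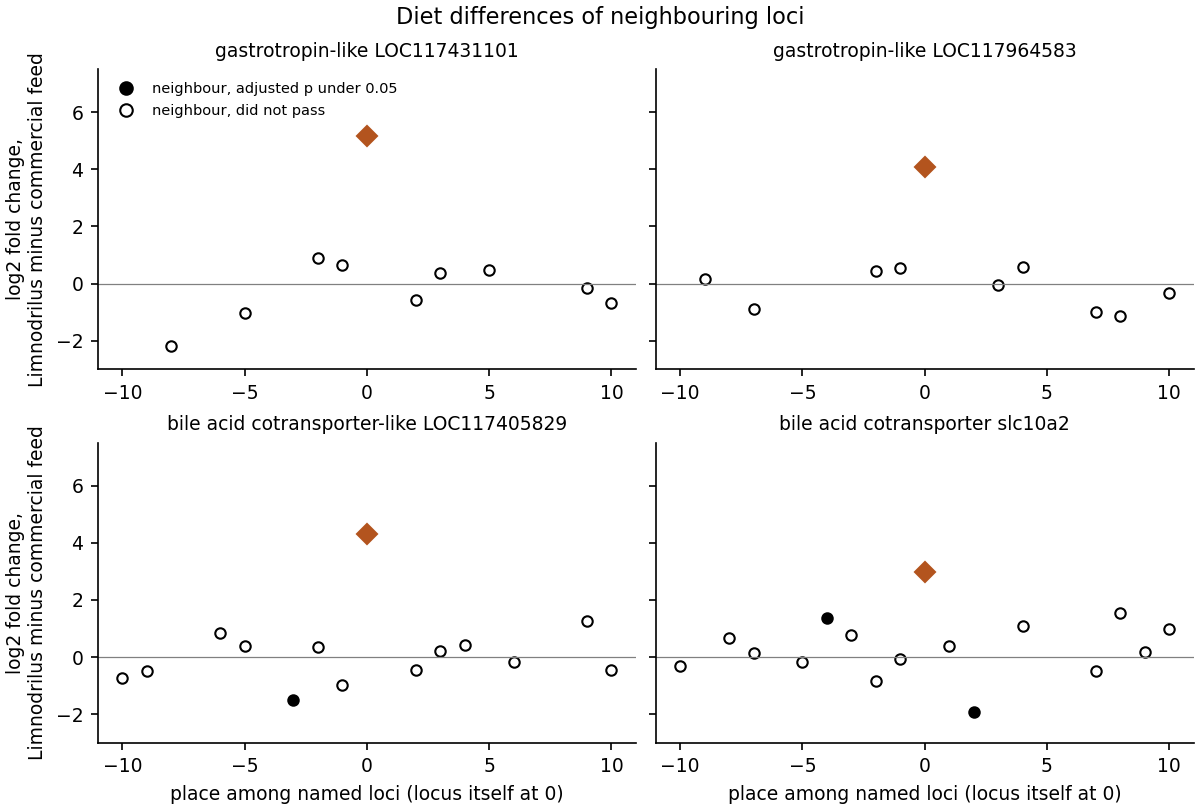
Log2 fold change, Limnodrilus minus commercial feed, of the 10 nearest named loci on either side of each of the 4 loci, by place along the sequence; filled points passed limma at an adjusted p under 0.05, open points did not, untested loci are not drawn, and the diamond is the locus itself. The neighbours lie between -2.19 and 1.55 and the 4 loci between 2.96 and 5.15.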

How the data were processed

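Gut poly(A) RNA was sequenced from 3 libraries per diet. The authors deposited 1 table of FPKM values with a length for each feature; the submitters' processing notes list cutadapt 1.9 and the mouse build mm10, whereas the RefSeq sequence names in the table belong to another genome. No source used here gives the assembly, aligner, counting tool or handling of multiply matching reads, so values of near-identical copies are uncertain.

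Computed here: log2(FPKM + 1) for features whose mean reached 1 FPKM, and limma 3.58.1 (R 4.3.3), limma-trend, 2-sided, all 6 libraries, Benjamini-Hochberg adjustment over the 23644 features, threshold 0.05; the script was tested on simulated data. An exact permutation test of 3 against 3 cannot go below 0.1. The product of FPKM and length came out as whole steps (within 0.1) in each library for 100.0% of values up to 20 reads and 88.9% to 95.2% of all values, which gave approximate reads. Since the file holds FPKM, limma-trend was the main test, and a count model (limma-voom on these reads) was an alternative.

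The 4 loci and all gene lists were chosen with earlier results of these data known. Loci were matched by symbol or product name. Named are the 4 loci, other gastrotropin and SLC10 loci, called loci and the most abundant locus of each pathway list, and the 3 features most like each of the 4. Neighbours, and the order among Limnodrilus libraries, were examined after values had been seen. No sequence is shown because none was among the files used here.

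Alternatives were a pseudocount of 0.1, no minimum or a mean of at least 5 FPKM, median-of-ratios, quantile and TPM scaling, limma without trend, a replicate block, limma-voom on recovered reads and leaving out libraries.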

Additional observations from a re-analysis of the deposited data

How the results depend on the processing

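The 4 loci stayed higher with Limnodrilus under each alternative tried. Log2 fold changes of LOC117405829 and slc10a2, low in commercial feed, moved to 5.50 and 4.30 with a pseudocount of 0.1 and to 5.69 and 4.65 with limma-voom on recovered reads, both of which shrink low values less. Leaving out 1 library gave 4.63 to 5.61 for LOC117431101, 3.56 to 4.49 for LOC117964583, 3.87 to 4.71 for LOC117405829 and 2.21 to 3.47 for slc10a2.

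Over all features 4182 passed, 3321 higher and 861 lower (79.4% higher, against 60.0% and 58.3% after median-of-ratios and quantile scaling, which moved the median log2 fold change from 0.24 to 0.009 and -0.032, and 50.8% without commercial feed libraries 1 and 2 together). The number was 2625 with the minimum mean raised to 5 FPKM, where fewer features were tested, and 638 to 6295 with 1 library left out. The 6 calls among the 65 bile acid pathway loci became 3 with quantile scaling and 1 to 22 with 1 library left out, and without commercial feed libraries 1 and 2 together they were 9, 1 higher and 8 lower. Library numbers do not pair the samples: deviations from the diet means correlated at 0.187, -0.069 and 0.075 for libraries 1, 2 and 3 over the tested features, and 2 of the 3 Limnodrilus and 1 of the 3 commercial feed libraries correlated best with their own number. With the replicate number as a block, 2607 features and 3 pathway loci passed. The cause of these changes was not tested.

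The place of LOC117964583 in the order of likeness to LOC117431101 was 8 with a pseudocount of 0.1 and 2 to 18 with 1 library left out, and the reverse place, 7, was 11 and 4 to 151. slc10a2 was at 43 to 547 in the order of LOC117405829, and LOC117405829 at 43 to 7465 in that of slc10a2, or 144 with that higher minimum. Over 17 other named loci and 265 values, the direction reversed for slc10a1 (-1.41 to 0.30 with 1 library left out, 0.30 without Limnodrilus library 3). It also reversed for LOC117414218 without commercial feed libraries 1 and 2 (-1.26). The call was lost for 60 values, all at loci called in the main fit. The 265 values also include loci not called there, which had no call to lose. Low depth limits the cotransporter values in commercial feed, and with 3 libraries per diet the spread itself is poorly known.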
